A study of Mus musculus with 6 samples.

Results

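Matrix metalloproteinases are zinc-dependent enzymes that cut collagens, elastin and other proteins of the extracellular matrix, and Timps (tissue inhibitors of metalloproteinases) block their active site. The 10 genes described here are 7 metalloproteinase genes (Mmp8, Mmp9, Mmp12, Mmp13, Mmp14, Mmp19 and Mmp27) and the 3 inhibitor genes Timp1, Timp2 and Timp3. They were picked by name, with earlier results of the same comparison in view, and all 10 had a probe set, out of 23185 named genes on the array. The array carried 26 metalloproteinase and Timp genes in all, so 16 others of the family served for comparison. Because the comparison of JG-98 with control took part in the choice, the values of the 10 genes are given as a description with no test.

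RNA from cultured macrophages, derived from mouse bone marrow, was hybridised to 6 Affymetrix arrays. The 3 control samples were labelled as treated with none, and the 3 treated samples had received 0.3 micromole of the Hsp70 inhibitor JG-98 over 16 hours. The protocol text on the control samples also mentions the JG-98 treatment, so the controls are taken as untreated from their titles and treatment labels. No volume is given for that dose, no vehicle for the controls, and no genotype, strain or age for the mice. Replicates are not said to be separate animals or cultures, so their spread may be technical. The comparison asks how blocking Hsp70 alters macrophage gene expression.

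Macrophages secrete several metalloproteinases as inactive proenzymes, which other proteases then cut to activate them. Some act on matrix during migration and tissue repair, and others trim chemokines and cytokines. Transcription of several of these genes is known to depend on AP-1, a dimer of Fos and Jun proteins, often together with ETS factors.

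All values are log2 expression values, on which a difference of 1 is a 2-fold change. Array medians lay between 4.08 and 4.24. The highest was that of JG-98 replicate 3, and the next was 4.15, for control replicate 2. A probe set with a mean under 4 over the 6 arrays is called dim here. That limit is a choice made for this description, and with no detection call or background level used, it was not tested whether dim values differ from background. The array of JG-98 replicate 3 correlated with the other 5 at 0.992 to 0.993, and those with each other at 0.995 to 0.996. The 7 measured macrophage markers, among them the growth factor receptor gene Csf1r, lay between 8.27 and 12.1 on every array. None passed in limma, but 5 of the 7 had lower means with JG-98, with a median difference of -0.07. Csf1r, at -0.09 ± 0.061, and the clearance receptor gene Mertk, at -0.22 ± 0.067 (limma adjusted p = 0.477), were below all controls on every JG-98 array. Of the other markers, 1 was above all controls on every JG-98 array. Over all probe sets, 8.44% lay below all controls and 7.12% above. The summed level of the 7 was 71.8 to 72.1 on control arrays and 71.3 to 71.7 on JG-98 arrays, and its part in the values below was not tested. Of 10 neutrophil markers 9 were dim, as were 7 of 10 stromal markers, 3 of 7 osteoclast markers and 5 of 6 dendritic cell markers. In these bulk samples fewer cells of a type and less RNA per cell cannot be told apart.

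Upstream sequences are shown for the 3 genes whose JG-98 values were lower by the most, Mmp27, Mmp8 and Mmp13, and for Mmp12, a neighbour of theirs whose values differed little. Each is the 250 bases before the RefSeq transcription start on the + strand of GRCm38.p6, written 5′ to 3′. The windows are chr9:7571146-7571395 for Mmp27, chr9:7558179-7558428 for Mmp8, chr9:7272264-7272513 for Mmp13 and chr9:7344147-7344396 for Mmp12. Capitals mark the AP-1 motif TGANTCA, the ETS motif AGGAAG, the TATA box TATAAA and TGATGNAA, a motif for ATF4 with C/EBP, each searched on both strands.
Mmp27: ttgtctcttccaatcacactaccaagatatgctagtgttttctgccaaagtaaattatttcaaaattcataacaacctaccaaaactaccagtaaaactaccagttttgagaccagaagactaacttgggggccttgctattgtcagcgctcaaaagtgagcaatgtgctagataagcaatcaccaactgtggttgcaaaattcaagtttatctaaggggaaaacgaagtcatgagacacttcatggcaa
Mmp8: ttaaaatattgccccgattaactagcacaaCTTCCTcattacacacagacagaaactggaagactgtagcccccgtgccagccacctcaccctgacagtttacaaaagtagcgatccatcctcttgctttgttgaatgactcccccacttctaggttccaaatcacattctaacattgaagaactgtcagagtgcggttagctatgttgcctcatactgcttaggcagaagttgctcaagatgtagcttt
Mmp13: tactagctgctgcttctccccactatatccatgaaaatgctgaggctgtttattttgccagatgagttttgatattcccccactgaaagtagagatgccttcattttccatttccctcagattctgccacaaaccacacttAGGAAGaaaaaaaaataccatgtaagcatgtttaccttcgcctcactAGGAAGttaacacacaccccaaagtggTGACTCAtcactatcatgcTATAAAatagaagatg
Mmp12: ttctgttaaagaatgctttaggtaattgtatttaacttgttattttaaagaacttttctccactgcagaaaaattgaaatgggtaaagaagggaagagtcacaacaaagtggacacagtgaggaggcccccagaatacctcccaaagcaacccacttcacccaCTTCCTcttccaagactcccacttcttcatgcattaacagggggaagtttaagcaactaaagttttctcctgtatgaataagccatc

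The Mmp13 window held 1 AP-1 motif, 35 to 29 bases before the start, just upstream of a TATA box at 16 to 11 bases, and 2 ETS motifs. Mmp8 and Mmp12 each held 1 ETS motif, on the opposite strand, and Mmp27 held none of the 4 motifs. Of all 32851 RefSeq windows of the same length, 6.75% held the AP-1 motif, 29.5% the ETS motif, 12.4% the TATA box and 3.45% the ATF4 motif. A second Mmp12 window, at an alternative start, held 1 AP-1 motif. Windows were found for 8 of the 10 genes, and in the others ETS motifs occurred in Mmp14 and Timp3, with 1 each, and in Timp1, with 2. A match is a run of letters and says nothing of whether a factor was bound.

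Of the 7 metalloproteinases, 3 were lower with JG-98 on every array than in any control, and the 3 inhibitors differed little. Below all control values lay 8.44% of all probe sets. The largest difference was that of Mmp27, a family member with few known substrates. Its control values were 8.002, 8.133 and 8.014, and its JG-98 values 7.160, 7.234 and 7.206. The groups were far apart, with 0.77 between the lowest control and the highest JG-98 array. The difference was -0.85 ± 0.069 (SE, n = 3 per group), which is 1.80-fold lower. Of all 25206 probe sets, Mmp27 had the 10th lowest difference.

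Mmp8, the collagenase best known from neutrophil granules, was lower by a similar amount. It was at 7.11, 6.99 and 6.95 in the controls and at 6.22, 6.35 and 6.16 with JG-98. The groups did not overlap and lay 0.60 apart at their nearest. The difference was -0.77 ± 0.082 (SE, n = 3 per group), or 1.71-fold lower, the 20th lowest of all probe sets. Neutrophil markers were low in both groups beside it. The mean log2 value over the 10 markers was 3.05 to 3.28 on control arrays and 3.21 to 3.36 on JG-98 arrays, and the granulocyte marker Ly6g was dim. The marker closest to the threshold, Lcn2, an iron-scavenging granule protein, was higher by 0.62 ± 0.13 (limma adjusted p = 0.294).

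Mmp13, a collagenase that cuts fibrillar collagen in rodents, was lower by a smaller amount. Controls read 5.95, 5.87 and 5.87, and JG-98 arrays 5.48, 5.68 and 5.62. All 3 JG-98 values lay below the controls, with a gap of 0.19. The difference was -0.30 ± 0.078 (SE, n = 3 per group), 1.23-fold lower. Without JG-98 replicate 3 the differences were -0.85 for Mmp27, -0.73 for Mmp8 and -0.32 for Mmp13.

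Mmp12, the elastase of macrophages, stayed bright in both groups. Its controls were at 10.76, 10.79 and 10.75, and its JG-98 arrays at 10.81, 10.87 and 10.81. The JG-98 values were all above the controls, but by a margin of only 0.015 that was lost after median centring of the arrays. The difference was 0.06 ± 0.061 (SE, n = 3 per group; 95% interval -0.09 to 0.21).

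Mmp19, a secreted enzyme that cuts basement membrane proteins, overlapped between groups. It stood at 7.07, 7.12 and 7.17 in controls and at 7.24, 7.21 and 7.04 with JG-98. Its difference of 0.05 ± 0.078 had a 95% interval of -0.14 to 0.23, and JG-98 replicate 3 was the lowest of the 6 arrays. Without that array the difference was 0.11.

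Mmp14 is a membrane-bound enzyme that activates Mmp2 at the cell surface with the help of Timp2. Its values were 4.19, 4.29 and 4.15 in controls and 4.38, 4.10 and 4.33 with JG-98. They were close to the array medians and overlapped, with a difference of 0.06 ± 0.096 that ranged from 0.0047 to 0.15 when any one array was left out. The gelatinase gene Mmp9, made by neutrophils, osteoclasts and activated macrophages, was dim. It read 3.67, 3.63 and 3.48 in controls, and 3.23, 3.79 and 3.82 with JG-98. Among the JG-98 arrays, replicate 1 was lower than every control and the other two higher than every control. The difference was 0.02 ± 0.17, with a 95% interval from -0.38 to 0.42. It rested on JG-98 replicate 1, without which it was 0.21 ± 0.090, and it ranged from -0.08 to 0.06 without any other single array.

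Among the inhibitors, Timp2 was the only one measured well above the dim range. Besides blocking metalloproteinases, Timp2 helps Mmp14 to activate Mmp2. It was at 10.61, 10.62 and 10.59 in controls and 10.58, 10.59 and 10.48 with JG-98. The JG-98 arrays were lower by a margin of 0.0015. This separation vanished after median centring but held after further quantile normalization. The difference was -0.05 ± 0.064 (95% interval -0.21 to 0.10), and -0.02 without JG-98 replicate 3.

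Timp1, a secreted inhibitor often induced by inflammatory signals, was dim. Its controls read 2.81, 2.77 and 3.11, and its JG-98 arrays 2.76, 3.00 and 3.03, so the groups overlapped. Timp3 binds to the matrix and also blocks the sheddase Adam17, and it too was dim. It was at 1.79, 2.01 and 1.85 in controls and at 1.95, 1.83 and 1.88 with JG-98. Both differences were near 0, at 0.03 ± 0.12 and 0.01 ± 0.083. With any one array left out they ranged from -0.03 to 0.14 for Timp1 and from -0.04 to 0.07 for Timp3.

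**Figure D1:**
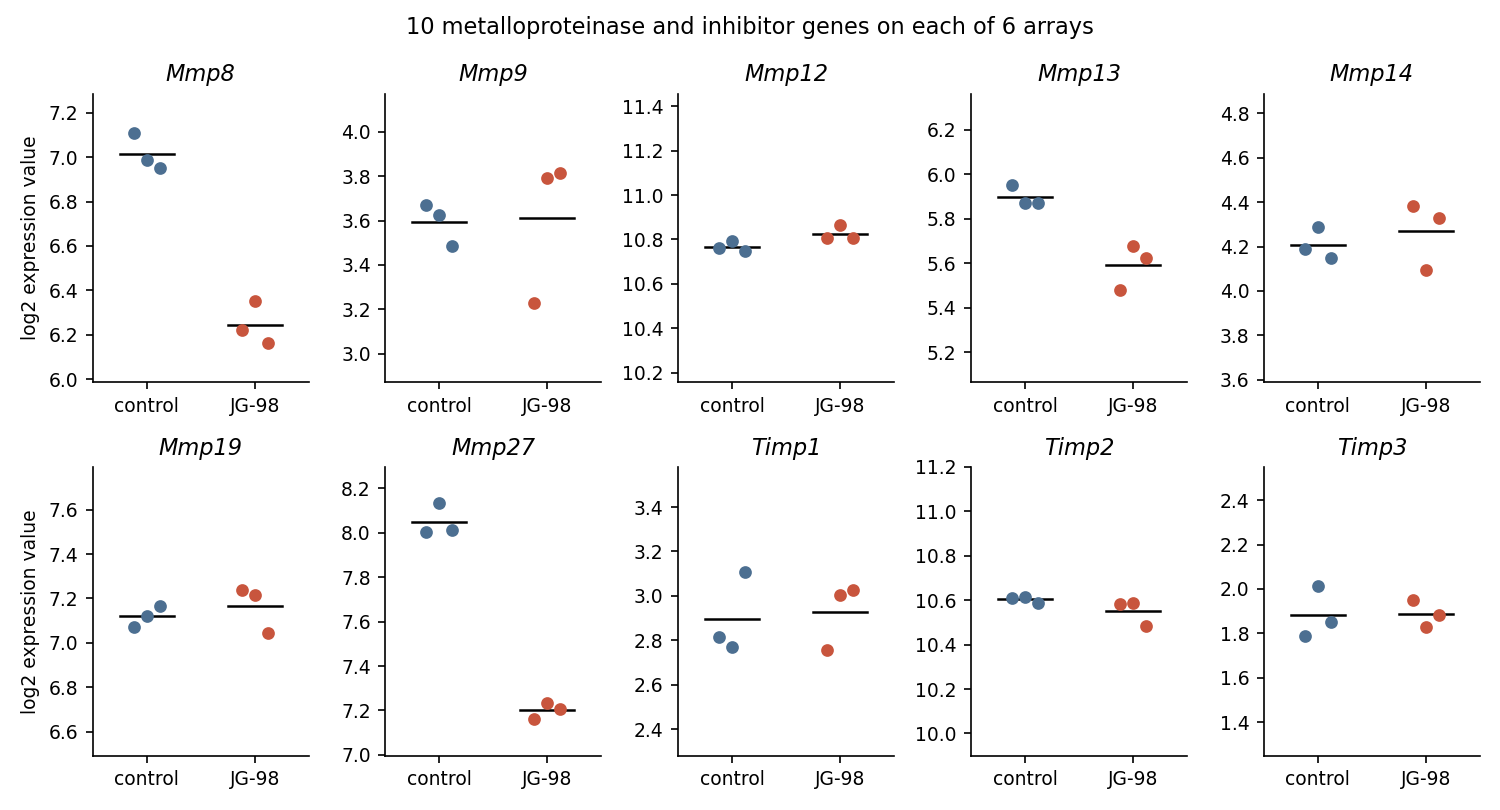
Log2 expression value (vertical axis, the same span of 1.3 in every panel) of the 10 genes on each array, with 3 control arrays in blue, 3 JG-98 arrays in red and group means as black lines. Mmp27 and Mmp8 separate by 0.77 and 0.60 at their nearest arrays and Mmp13 by 0.19, while the other genes overlap or nearly touch.

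Over all 10 genes, 6 differences were above 0 and 4 below, with a median of 0.01, against 0.0008 over all probe sets. In limma's fit over all probe sets with Benjamini-Hochberg adjustment, 1 of the 10, Mmp27, passed an adjusted p of 0.05, as did 0.0397% of all probe sets. In that direction alone 0.00793% of probe sets passed. Since this comparison had a part in choosing the genes, nothing is read from that count. The Mmp27 call was lost without any single one of the 6 arrays, at differences of -0.87 to -0.81, and when replicate number entered the fit as a block. Over the whole array, 0 to 5 probe sets passed with an array left out, and 0 with the block. All 3 JG-98 values lay outside the control range in 5 of the 10 genes, and in 15.6% of all probe sets. After median centring this held for 3 of them, Mmp8, Mmp13 and Mmp27, and for 12.7% of probe sets. After further quantile normalization it held for those 3 and Timp2, and for 17% of probe sets.

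The other family genes gave little signal. Of 16 other metalloproteinases listed, 15 had a named probe set, and 13 of these were dim. None passed in limma, over all genes or at an unadjusted p under 0.05, and in none did the groups separate. Their differences ran from -0.12 to 0.22, with a median of 0.01. The smallest p belonged to the membrane-type Mmp16, at 0.15 ± 0.10 (limma adjusted p = 0.760), and the next to Mmp24, also membrane-bound, at 0.22 ± 0.18 (adjusted p = 0.799). Of 5 other inhibitors none passed, and 1 did so at an unadjusted p under 0.05. This was Timp4, dim at group means of 2.07 and 1.66, with a difference of -0.41 ± 0.12 (limma adjusted p = 0.477). Reck, a membrane-anchored inhibitor, was at -0.09 ± 0.071.

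**Figure D2:**
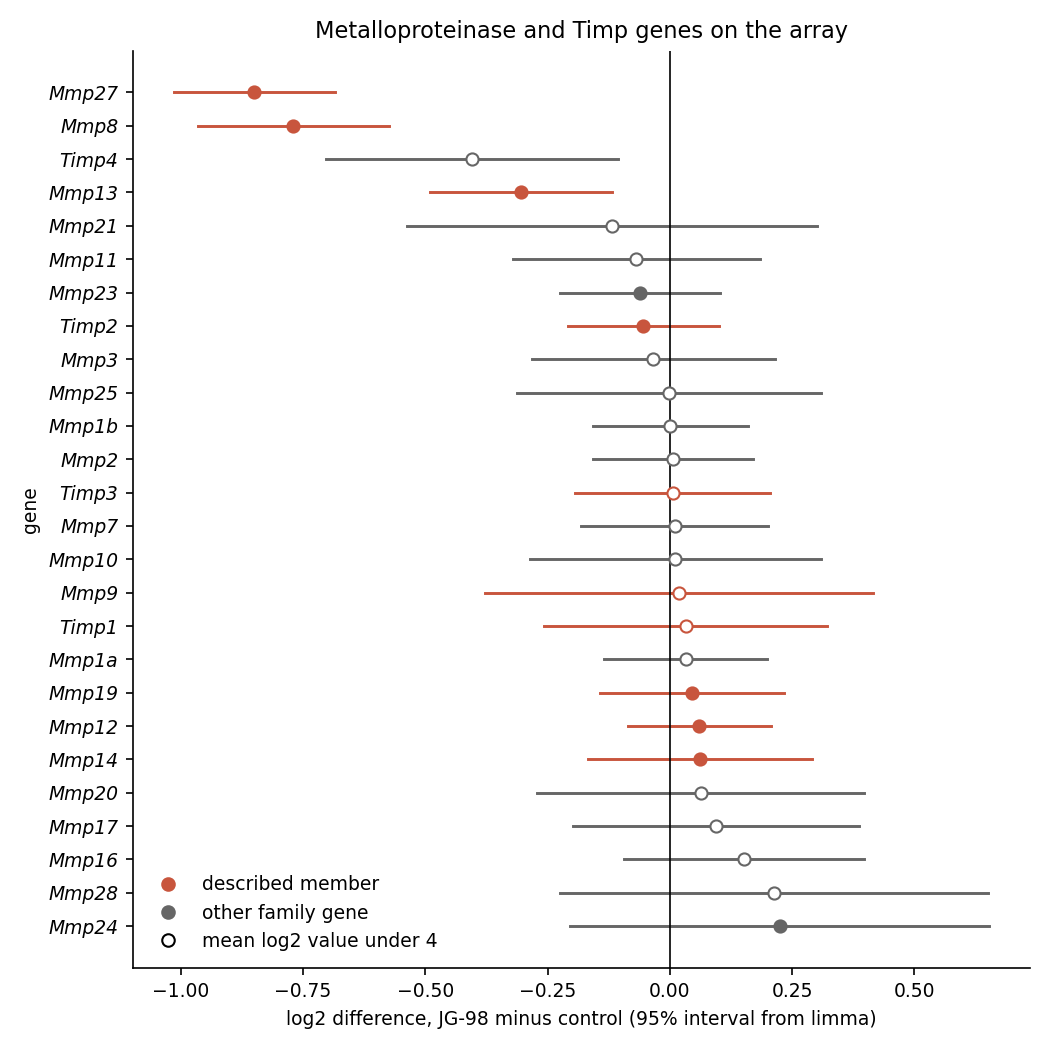
Log2 difference, JG-98 minus control, with its 95% interval from limma (horizontal axis) for the 26 metalloproteinase and Timp genes on the array, lowest at the top. Red marks the 10 described genes, grey the others and open circles a mean log2 value under 4. Mmp27 at -0.85 and Mmp8 at -0.77 stand lowest, followed by the dim Timp4 at -0.41 and by Mmp13 at -0.30.

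Since the genes were picked with earlier results of this comparison in view, their positions are given only as a description. By the RefSeq table of GRCm38.p6, 4 of the 10, Mmp13, Mmp12, Mmp8 and Mmp27, lie in a cluster of 10 metalloproteinase genes on chromosome 9. The order there is Mmp13, Mmp12, Mmp1b, Mmp3, Mmp1a, Mmp10, Mmp8, Mmp27, Mmp20 and Mmp7. The 3 metalloproteinase genes that were lower on every JG-98 array than in any control were all in this cluster, and Mmp8 and Mmp27 are direct neighbours among its protein-coding genes. Mmp12 lies between Mmp13 and Mmp8 and was not lower. The remaining 6 were dim, with means of 1.45 to 3.36 and differences of -0.03 to 0.06. Mmp1a and Mmp1b are close copies whose transcripts can share probes. The flanking genes Dcun1d5 and Tmem123, brighter at means of 7.20 and 8.88, had differences of 0.05 ± 0.12 and -0.02 ± 0.076. RefSeq also places a non-coding gene, Gm31751, across Mmp8 and Mmp27. It had no named probe set, and its part in the values of either was not tested.

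**Figure D3:**
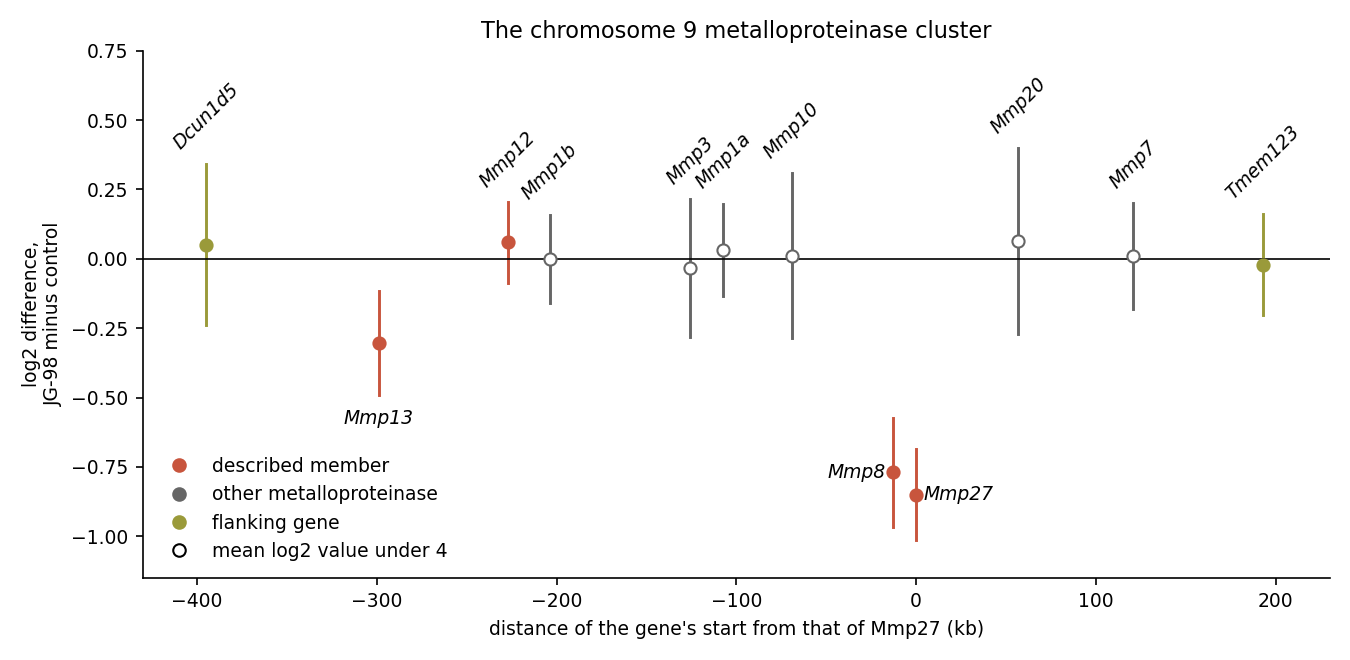
Log2 difference, JG-98 minus control, with its 95% interval from limma (vertical axis) against the distance of each gene's start from that of Mmp27 in kilobases (horizontal axis), for the 10 clustered metalloproteinases and a flanking gene on each side. Mmp8 and Mmp27 lie side by side at -0.77 and -0.85 and Mmp13 at -0.30, while Mmp12 is at 0.06 and the 6 dim genes, as open circles, lie near 0.

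Likeness to other genes was measured as the root mean square difference between centred log2 values over the 6 arrays. Among 23184 other genes, the nearest to Mmp27 was Cyp27a1, a sterol hydroxylase, at 0.090. Mmp8 was the second nearest, at 0.097, and Tmem176b, a membrane protein of myeloid cells, the third, at 0.11. For Mmp8 the nearest was Ighm, the immunoglobulin mu heavy chain, at 0.052, followed by Mmp27 and then Tmem176b at 0.10. Thus Mmp8 and Mmp27 were each second in the other's order. Mmp13 came only at rank 257 for Mmp27 and rank 232 for Mmp8, since its difference was smaller. Its own nearest genes were Btf3l4, the olfactory receptor gene Olfr49 and Ltc4s, the leukotriene C4 synthase, at 0.021 to 0.031. In that order Mmp8 came at rank 15693 and Mmp27 at rank 19140. The values were centred but not scaled, so genes with large differences of like size come close by construction. The measure rests on the same 6 arrays as the choice of genes and is a description.

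The genes around the metalloproteinases were taken as 9 lists, of which 122 of 129 genes had a named probe set. None passed an adjusted p of 0.05 in limma. At an unadjusted p under 0.05 there were 9 higher and 6 lower, where the share over all probe sets was 8.32%, made up of 3.84% higher and 4.48% lower. The groups separated in 24 of the 122, against 15.6% over all probe sets. Among brighter probe sets, with a mean of at least 6, limma called 4 of these genes, Plau, Plaur, Jund and Tnf, all higher with JG-98. The 4 come from far fewer than 122 genes. Not tested at that setting were the 65 dim ones and also those with a mean from 4 to 6. The genes left were not counted, so the 4 have no share to set beside that of all probe sets. Calls increased over the whole array at that setting, with 2.17% of the 8064 probe sets tested called higher. With an intensity trend limma called the same genes and Adam8, and 0.504% of all probe sets were called higher.

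The list of activating proteases and the plasminogen system had 12 measured genes. Plasmin, the product of that system, activates several pro-metalloproteinases. Plaur, the urokinase receptor, was at 7.42 to 7.56 in controls and 7.82 to 8.05 with JG-98. The difference was 0.46 ± 0.089 (limma adjusted p = 0.275). Plau, which encodes urokinase, was at 8.56 to 8.74 in controls and 8.94 to 9.05 with JG-98, a difference of 0.33 ± 0.078 (adjusted p = 0.360). Both separated fully between groups, upward, opposite in sign to Mmp27, Mmp8 and Mmp13. Of the 12 genes these 2 lay above all controls and 1, the protease gene Pcsk7, below them, with a difference of -0.16. The shares over all probe sets were 7.12% above and 8.44% below. The median over the list was 0.09.

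Of 15 measured transcription factors known to act on metalloproteinase promoters, 3 were higher on every JG-98 array than in any control. The 2 that were lower on every JG-98 array were Runx1, at -0.13, and Mitf, at -0.08. Over all probe sets, 7.12% lay above all controls and 8.44% below. Jund, a partner in AP-1, was at 8.001 to 8.130 in controls and 8.40 to 8.45 with JG-98, a difference of 0.36 ± 0.066 (limma adjusted p = 0.267). The ETS factor gene Ets2 was at 0.26 ± 0.086 (adjusted p = 0.512), while Ets1, another ETS factor gene, was at -0.25 with overlapping groups. Of 9 cytokines that induce metalloproteinases, Tnf was at 7.924 to 7.999 in controls and 8.18 to 8.28 with JG-98. Its difference was 0.26 ± 0.065 (limma adjusted p = 0.380), and Osm, or oncostatin M, was at 0.27 ± 0.071 (adjusted p = 0.413). The AP-1 motif stood in the Mmp13 window shown above and in neither the Mmp8 nor the Mmp27 window.

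Among 25 measured matrix substrates, 15 were dim and the median difference was 0.05. Thbs1, or thrombospondin 1, which binds metalloproteinases as well as matrix, was at 5.84 to 6.35 in controls and 5.33 to 5.65 with JG-98. The groups did not overlap, and the difference was -0.67 ± 0.15 (limma adjusted p = 0.347). Col3a1, a fibrillar collagen chain, was dim, at 0.31 ± 0.12 (adjusted p = 0.572).

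The 13 listed genes of the ADAM family, which is related to the metalloproteinases, had a median difference of -0.04. Adam8, a sheddase of myeloid cells, was at 11.15 to 11.20 in controls and 11.31 to 11.34 with JG-98, so its groups separated by a small step. Its difference was 0.15 ± 0.060 (limma adjusted p = 0.593). Adam12 was dim, at -0.43 ± 0.13 (adjusted p = 0.477). The 18 measured ADAMTS genes, secreted proteases of the matrix, included 15 dim ones. Their smallest p belonged to Adamts18, at 0.12 ± 0.071 (limma adjusted p = 0.721), and the next to Adamts15, at -0.21 ± 0.13.

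The surface partners and clearance receptors were all 10 measured and none was dim. Mrc1, the mannose receptor, which takes up collagen fragments, was at 10.87 to 10.90 in controls and 10.56 to 10.76 with JG-98. The difference was -0.22 ± 0.074 (limma adjusted p = 0.513). Cd63, a tetraspanin that binds Timp1, was at 0.17 ± 0.067 (adjusted p = 0.584).

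**Figure D4:**
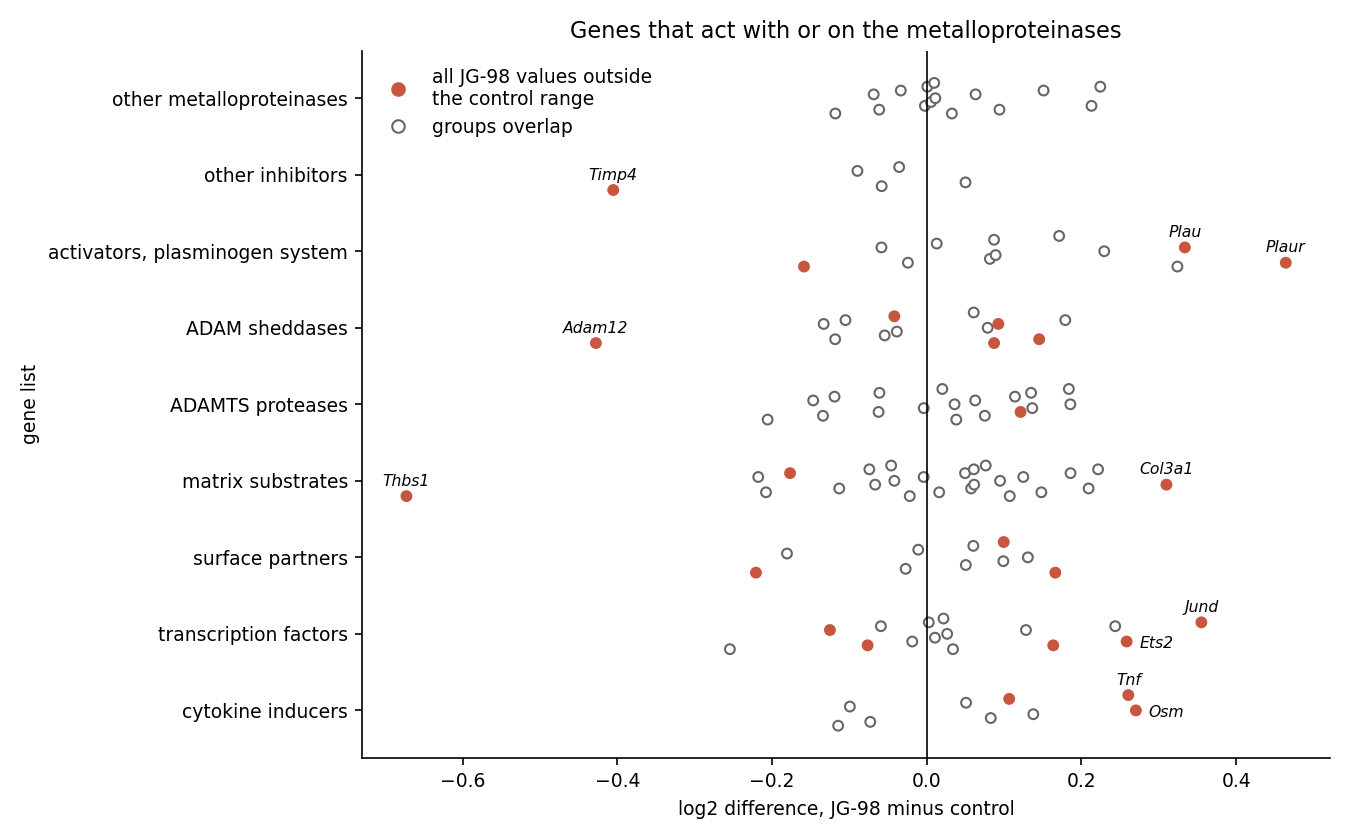
Log2 difference, JG-98 minus control (horizontal axis), of the 122 measured genes in the 9 lists around the metalloproteinases (vertical axis; offsets within a list only part the points). Filled red points are the 24 genes whose 3 JG-98 values all lay outside the control range. Plaur at 0.46 is the highest and Thbs1 at -0.67 the lowest.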

How the data were processed

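The values deposited by the authors are on the log2 scale, with 1 value for each probe set on each array, and the submitters' processing notes name RMA, affy and R 2.15.1 without their roles. RMA generally corrects background, normalizes by quantiles and compresses differences between dim probe sets. Probe sets carry Entrez numbers. Of 25206, 23185 had 1 symbol, which was updated through RefSeq (GRCm38.p6), and the others were tested unnamed. Upstream sequences also come from RefSeq; the array's own build was not given in the sources used here.

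JG-98 was compared with control by limma 3.58.1 in R 4.3.3 (lmFit, eBayes, two-sided, no covariate), adjusted by Benjamini-Hochberg over all probe sets at 0.05. The SE is the moderated one, on 4 residual and 2.6 prior degrees of freedom. The number of arrays limits the precision. The script was tested on simulated data.

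The members and lists were chosen with earlier results of these data known. Named were the 10 members, up to 2 genes with the smallest p per list, the 3 genes nearest in pattern to each of the 3 members with the largest differences, and chromosomal neighbours. A few more list genes are named where they went the other way. The alternatives were median centring, quantile normalization, minimum means of 4 and 6, an intensity trend, a robust prior, array weights, the replicate number as a block and leaving out each array.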

Additional observations from a re-analysis of the deposited data

How the results depend on the processing

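With all settings as deposited, 10 probe sets passed over the whole array, 8 higher and 2 lower. The count was 59 (34 higher, 25 lower) among probe sets with a mean of at least 4, and 385 (175 higher, 210 lower) among those with a mean of at least 6, where fewer probe sets were tested. It was 254 with an intensity trend, 127 higher and 127 lower, 25 with array weights, 0 with the replicate block, and 0 to 5 when any one array was left out. The pathway count of 0 became 4 with a mean of at least 6 and 5 with an intensity trend, and stayed at 0 under the other 12 alternatives. Same-numbered control and JG-98 samples deviated together at correlations of -0.13 to 0.10. The highest correlation, 0.20, was between control replicate 1 and JG-98 replicate 2. With 3 arrays per group, these values cannot decide whether same-numbered samples were paired. Over 14 alternatives, the differences ranged from -0.87 to -0.81 for Mmp27, which passed in 7, and from -0.82 to -0.72 for Mmp8, which passed in 5, none of them a fit with an array left out. Mmp13 ranged from -0.35 to -0.25 over the 13 that tested it and passed in none. Because the same comparison had a part in choosing these genes, nothing is read from how often they passed. Mmp9, Timp1 and Timp3 kept their sign in 6, 7 and 8 of 12. No member moved by more than its spread between replicates. Mmp9, Timp1 and Timp3 were dim, and background was not measured.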
